A study of Mus musculus with 6 samples.

Results

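The cytosolic ribosomal proteins were examined as 1 gene family in RNA-seq of mouse peritoneal macrophages. Its members are the protein-coding rows of the deposited FPKM table that carry an Rpl or Rps symbol with a number, together with Rplp0, Rplp1, Rplp2 and Rpsa, while pseudogenes and the Rps6k kinases were left out. The rule uses names and biotype and no measured value, and it found 83 of the 54532 genes, 51 of the large subunit and 32 of the small subunit. Wild-type (WT) macrophages were elicited in male C57BL/6J mice aged 6 to 8 weeks with thioglycolate, collected by peritoneal lavage and cultured. Control cells were untreated. In the Model group, 5.5 h of LPS at 500 ng/mL, which primes the NLRP3 inflammasome, was followed by 0.5 h of ATP at 2 mM, which triggers it. The MUS group was treated in the same way, with muscone, a macrocyclic ketone, added at 50 μM when 5 h of LPS had passed. Each group had 2 libraries of poly-A RNA, and the labels give the replicate number, 1 or 2, as the batch.

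A ribosome is built from ribosomal RNA and one copy of nearly every protein of this family, which are assembled into the small subunit, where mRNA is decoded, and the large subunit, where peptide bonds are formed. The mRNAs are abundant in most cells, and many begin with a cytosine followed by a run of pyrimidines, the terminal oligopyrimidine (TOP) motif, through which their translation follows mTOR signaling. Some members also act outside the ribosome, as does Rpl11, which binds the p53 inhibitor Mdm2 when it is free.

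The start of the gene was inspected because the TOP motif is a shared feature that the choice of members did not use. The motif was searched on the strand of the gene as a C followed by at least 4 further bases that are each C or T, starting within 5 bases of a RefSeq transcription start (GRCm38.p6). It was present in 29 of the 63 members that have a start in the RefSeq table (46.0%), against 21.2% of all 27025 genes of that table and 23.7% of the other genes tested here. A match is a description of letters in the window and not a mapped start in these cells. The windows cover 30 bases, 15 before the start that RefSeq gives and 15 from it on, with the tract in capitals. They are shown for the 4 members that passed the test in any comparison (Rpl7a, Rpl28, Rpl35 and, at the middle of its 3 starts, Rpl35a) and for 4 members among those furthest apart between MUS and Model (Rpl18, Rps2, Rps16 and Rpl11).
Rpl7a, chr2:26910792-26910821, + strand: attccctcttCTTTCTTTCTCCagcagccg
Rpl28, chr7:4792950-4792979, + strand: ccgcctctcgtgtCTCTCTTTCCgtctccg
Rpl35, chr2:39005117-39005146, - strand: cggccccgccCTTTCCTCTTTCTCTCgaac
Rpl35a, chr16:33056467-33056496, + strand: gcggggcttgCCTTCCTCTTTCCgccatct
Rpl18, chr7:45718056-45718085, + strand: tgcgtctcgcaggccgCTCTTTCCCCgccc
Rps2, chr17:24720048-24720077, + strand: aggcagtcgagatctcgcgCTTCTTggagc
Rps16, chr7:28350674-28350703, + strand: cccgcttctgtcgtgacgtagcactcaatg
Rpl11, chr4:136053379-136053408, - strand: ctgacccataaggccacggggccggaagtc
The tract was thus found at a listed start of Rpl7a, Rpl28, Rpl35 and Rpl35a, members that differed in opposite directions, and at Rpl18 and Rps2 but not at Rps16, 3 members that were all lowest in the MUS libraries.

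The 6 libraries held between 15526321 and 17135442 fragments on genes. Fragments per gene could be recovered, since FPKM times length came out as a whole number of steps for 100% of the values (tolerance 0.1 of a step). Replicate 1 of Model stood apart with 24906 genes that had at least 1 fragment, against 17406 to 19200 in the other libraries. The value of 1 fragment on 1 kb also differed, with 0.0437 FPKM in both Control libraries and 0.0616 to 0.0709 FPKM in the other 4, so that FPKM and shares of fragments give different contrasts with Control. The macrophage label was borne out by 10 of 10 macrophage markers above the filter, with a summed FPKM of 9658 to 14359. Markers of neutrophils summed to 13.8 and 30.9 FPKM in Control, against 112 and 57.7 in Model and 64.6 and 50.9 in MUS, almost all of it S100a8, with S100a9 listed at 0 and 4 of the 9 markers at 0 in all libraries. The lists of B cell, eosinophil, mesothelial, mast cell, T and innate lymphocyte and red cell markers each summed to at most 6.87 FPKM in any library. The part of any of these in the values below was not tested, and in bulk RNA fewer cells of a type and less RNA per cell cannot be told apart.

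Ribosomal protein mRNAs were mostly abundant, but their levels differed widely. FPKM divides by the annotated gene length, which for members ran from 383 to 6270 bases and was 499 for Rplp1, the highest. The part of this length in differences between members was not tested. Mean FPKM over the libraries was over 100 for 34 members, from 10 to 100 for 40, from 1 to 10 for 5 and under 1 for 4. The median member tested was at the 94.9th percentile of all genes tested. The highest level was that of Rplp1, a protein of the acidic stalk that recruits elongation factors. Its FPKM was 927 and 1151 in Control, with 2857 and 1126 in Model and 1101 and 1224 in MUS. One Model library was thus above the other 5, which lay close together. Rplp0, the base of the same stalk, had 275 and 259 FPKM in Control, then 427 and 267 in Model, then 285 and 312 in MUS. The third stalk gene, Rplp2, was lower, at 65.9 and 86.0 FPKM in Control, against 206 and 88.2 in Model and 87.9 and 103 in MUS. All 3 stalk genes therefore had their highest value in replicate 1 of Model.

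After Rplp1, the 10 highest members by mean FPKM included Rpl17 (413.5), Rps3a1 (411), Rplp0 (304), Rpl10 (291), Rpl26 (283), Rps4x (264), Rpl39 (255) and Rps6 (243). The 10 highest took between 36.6% and 45.4% of the summed FPKM of the family in a library when each library was ranked on its own, and between 6 and 10 of the overall top 10 were in the top 10 of each library. In this order the ranges of neighbours over the 6 libraries overlapped, except for Rplp1, whose lowest library, at 927 FPKM, was above the highest library of any other member, Rpl17 at 795 FPKM. The order of levels was thus similar between libraries, with Rplp1 at the top in each.

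At the other end, 4 members did not pass the filter of a mean FPKM of at least 1 and were not tested. Rpl10l was listed at 0 in all 6 libraries. Rpl3l had 0.0863 FPKM in replicate 1 of Model and was at 0 in the other 5, and Rpl39l had 0.158 FPKM in replicate 2 of Control, 0.0796 in replicate 1 of MUS and was at 0 elsewhere. These 3 are copies of Rpl10, Rpl3 and Rpl39 known mainly from testis or muscle, and their parent genes were at 219 to 411 FPKM, 75.1 to 127 FPKM and 153 to 429 FPKM. A count of 0 allows up to 3 fragments, which on a gene of 1 kb is 0.131 to 0.213 FPKM. The fourth, Rps10, encodes a core protein of the small subunit, yet had only 0.397 and 1.21 FPKM in Control, with 1.20 and 1.12 in Model and 0.487 and 0.400 in MUS. Rpl13a (0.657 to 1.45 FPKM), Rpl21 (0.968 to 5.70 FPKM) and Rpl24 (1.23 to 6.58 FPKM) are core proteins that were also low. How reads that fit several near-identical copies were counted is not given in the sources used here, and its part in these low values was not tested. Of the 50-base stretches in the transcripts of a member, a median of 23.5% also occur in transcripts of another gene. This share was 22.6% for Rps10, 24.0% for Rpl13a and 14.9% for Rpl21. It was over 50% for Rpl35 (84.0%), Rpl36 (81.1%), Rpl23a (80.8%), Rps3a1 (71.0%), Rplp1 (60.0%), Rpl19 (57.4%) and Rpl24 (51.8%). Levels of these 7 genes are uncertain for that reason. The share covers all annotated transcripts of a gene and counts exact matches only. It therefore cannot show what part copies have in the low values of Rps10, Rpl13a and Rpl21.

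As a family, the 83 members took 3.66% and 3.47% of the summed FPKM in Control, then 4.29% and 2.74% in Model and 3.004% and 3.19% in MUS. As a share of recovered fragments these were 1.97% and 1.73%, 2.33% and 1.32%, and 1.47% and 1.55%. By both measures the Model libraries were the highest and the lowest of all 6, and the MUS libraries lay below both Control libraries. An exact permutation test of 2 against 2 libraries cannot go below p = 0.33, and no other test of these shares was run.

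The spread inside Model was a shift of nearly the whole family. The ratio of FPKM in replicate 1 to replicate 2 had a median of 1.87 over the 79 members tested, and 77 of 79 were higher in replicate 1, while the median ratio over all 9794 genes tested was 1.02. In Control and MUS the same median over members was 1.09 and 1.03. More than 2-fold between the replicates were 28 members in Model (35.4%, against 13.1% of all genes tested), 12 in Control (15.2%, against 14.5%) and 1 in MUS (1.27%, against 4.71%). The members furthest apart inside one group were Rpl38 in Model (a ratio of 6.53), Rpl36a in Control (5.39) and Rps27a in Model (4.66). Rpl38, of the large subunit, had 86.3 and 35.8 FPKM in Control, with 91.0 and 13.9 in Model and 99.6 and 89.4 in MUS. Rps27a, which makes a ribosomal protein fused to ubiquitin, had 48.5 and 167 FPKM in Control, against 414 and 89.0 in Model and 160 and 255 in MUS. Rpl38 was thus lowest in replicate 2 of Model and next lowest in replicate 2 of Control. Rps27a was high in replicate 1 of Model but low in replicate 1 of Control. Of the 12 members over 2-fold apart in Control, 10 were higher in replicate 1, among them Rpl28, Rpl23a, Rps28, Rpl41, Rpl35 and Rps15, and 2 were higher in replicate 2.

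**Figure D1:**
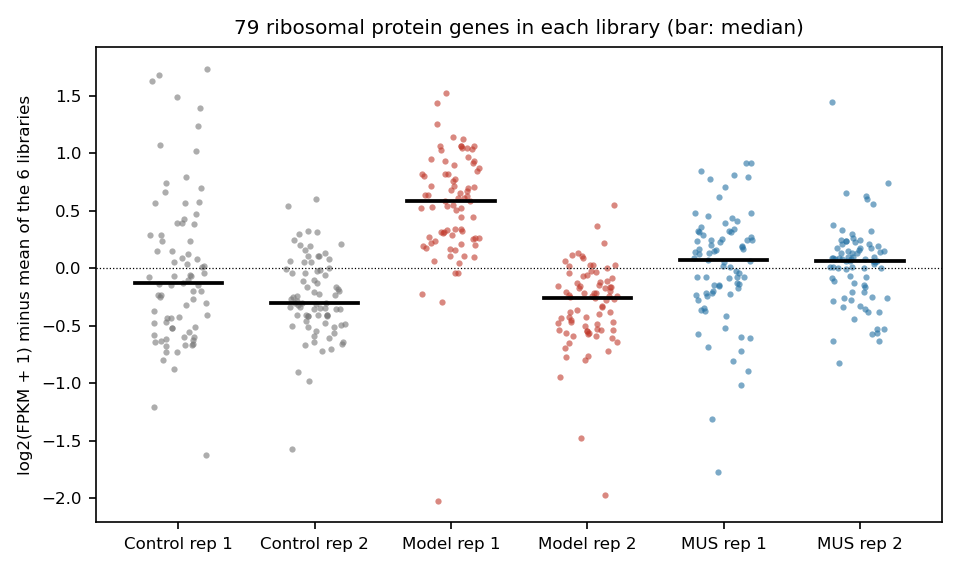
Deviation of each of the 79 tested ribosomal protein genes from its own mean over the 6 libraries, in log2(FPKM + 1), with 1 column of points per library and a bar at the median. The median was 0.59 in replicate 1 of Model and lay between -0.30 and 0.07 in the other 5 libraries.

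In Model vs. Control, the comparison of stimulated with untreated cells, 1 of the 79 members tested was called, Rpl7a, which fell. Calls needed an adjusted p of at most 0.05 (limma on log2(FPKM + 1), Benjamini-Hochberg over all 9794 genes tested) and an absolute log2 fold change over 1, and 15.1% of all genes were called by this rule, 9.5% higher and 5.56% lower. With limma, 10 members were higher and 6 lower at an unadjusted p under 0.05, which together is 20.3% of members against 33.6% of all genes. By adjusted p alone, 0 members were higher and 1 was lower, against 10.3% and 6.94% of all genes. The median log2 fold change of the members was 0.41, against 0.04 for all genes tested, with 57 higher and 22 lower. That median was 0.76 within batch 1, which holds replicate 1 of Model, -0.01 within batch 2 and -0.10 without replicate 1 of Model, so its direction was that of 1 library. The direction also depended on the scale, as the median was -0.13 with each library scaled to its fragments on genes, where the median of all genes was -0.40, and -0.40 after quantile normalization, where it was -0.06. The median of the members minus that of all genes was thus 0.37 on the FPKM scale, 0.27 on the fragment scale and -0.34 after quantile normalization. With genes under a mean FPKM of 5 left out it was 0.17, as the median of all genes rose to 0.25 while that of the members stayed at 0.41.

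Rpl7a encodes a protein of the large subunit and lies at chr2:26910764-26913318 on the + strand (GRCm38). Its FPKM was 21.1 and 11.6 in Control (16.4 ± 6.72, SD, n = 2), 1.67 and 2.90 in Model (2.29 ± 0.868, SD, n = 2) and 18.1 and 28.6 in MUS (23.4 ± 7.45, SD, n = 2). Both Model libraries were below the other 4, which held for 1 of the 79 members (1.27%, against 7.03% of all genes), and the Control and MUS libraries overlapped. The recovered fragments behind these values were 860, 473, 42, 80, 487 and 828, in the same order. In Model vs. Control the log2 fold change was -2.37 (SE 0.37, adjusted p = 0.0086), with -3.05 in batch 1 and -1.69 in batch 2. Without replicate 1 of Model it was -2.10 and the adjusted p rose to 0.0588, and with no filter on low values it was 0.0782. In the other 19 refits of this value that were run, the adjusted p lay between 0.0038 and 0.0367. Of its 50-base stretches, 37.9% occur in transcripts of other genes, and fragments that come from a copy cannot be told apart.

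Of the 79 members tested, 26 were higher in both Model libraries than in both Control libraries, which is 32.9% of members against 32.6% of all genes tested, and 6, Rpl7a included, were lower in both (7.59% of members, against 28.5%). Among the 5 largest increases in log2 fold change were those of Rpl17 (1.22), Rpl8 (1.21), Rps27a (1.09) and Rpl24 (1.08), none of which was called. Rpl17, a protein of the large subunit, had 218 and 267 FPKM in Control, with 795 and 397 in Model, then 397 and 407 in MUS. All 4 stimulated libraries were above Control, and the difference had an SE of 0.42 and an adjusted p of 0.0939. Without replicate 1 of Model the log2 fold change of Rpl17 was 0.72 (adjusted p = 0.262), and without replicate 2 of Model it was 1.72 (adjusted p = 0.0430), a call. Rpl17, Rpl8 (adjusted p = 0.0867) and Rpl24 (0.0766) had both Control libraries below the other 4, as 26 members had (32.9%, against 27.7% of all genes). For Rps27a the batches went in opposite directions, with 3.07 in batch 1 and -0.90 in batch 2, and the log2 fold change without replicate 1 of Model was -0.018.

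The 5 largest decreases were those of Rpl7a (-2.37), Rpl23a (-1.52), Rpl28 (-1.31), Rps28 (-1.28) and Rpl41 (-1.22). Rpl23a, which lies beside the exit of the peptide tunnel, had 40.6 and 14.6 FPKM in Control, then 11.1 and 5.49 in Model and 6.56 and 8.72 in MUS. Rps28, a protein of the small subunit, had 26.4 and 9.14 FPKM in Control, against 8.28 and 4.10 in Model and 5.20 and 4.96 in MUS. Rpl41, the smallest protein of the large subunit, had 153 and 58.1 FPKM in Control, with 43.9 and 36.2 in Model and 46.4 and 37.2 in MUS. In these 3 genes, Rpl28 and Rpl35 both Control libraries were above all others (5 members, 6.33%, against 23.8% of all genes), and no member had both Model libraries above the other 4 (0 of 79, against 7.49%). In the 4 of them among the 5 largest decreases, replicate 1 of Control was between 2.64 and 2.89 times replicate 2. With the batch as a block, the call was reached by 3 members (16.2% of all genes), Rpl7a (adjusted p = 0.0071), Rpl23a (0.0440) and Rps28 (0.0421), all lower. Without replicate 2 of Control the median log2 fold change of the members was 0.32, and without replicate 2 of Model it was 0.86. The calls in this comparison were lower for 1 of 1 member on the FPKM scale and 6 of 6 on the fragment scale, where 22.2% of all genes were called. With voom on recovered fragments they were lower for 10 of 10, where 28.5% of all genes were called.

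**Figure D2:**
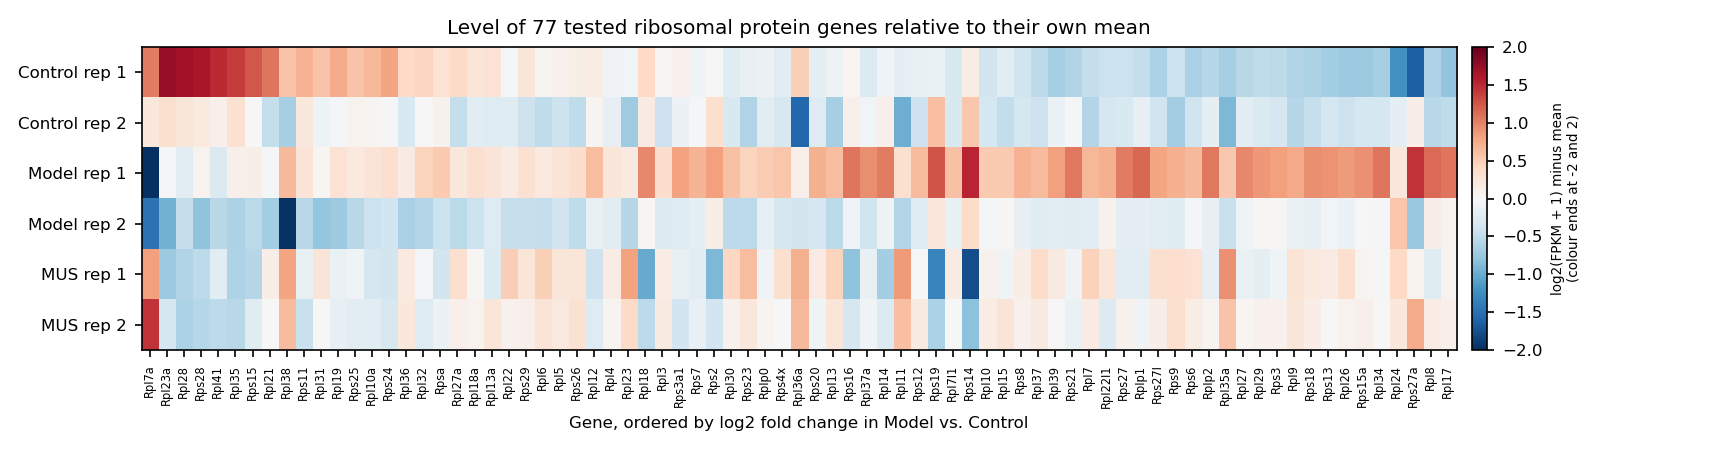
Heat map of log2(FPKM + 1) minus the mean of the gene over the 6 libraries (rows) for 77 of the tested members (columns), ordered from the lowest to the highest log2 fold change in Model vs. Control. Replicate 1 of Model is red for most genes, 74 of all 79 tested members being above their own mean there against 13 of 79 in replicate 2, and Rpl7a at the far left is blue in both Model libraries.

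MUS vs. Model addresses what muscone changed in stimulated cells. It shares its 2 Model libraries with Model vs. Control, so a low or high Model value moves these comparisons in opposite directions. No member was called, and neither was any other gene (0 of 9794, 0.0%) by limma; at an unadjusted p under 0.05 there were 1 higher and 5 lower members, against 2.61% and 5.81% of all genes (8.42% together), and voom on recovered fragments called 0 members as well. The median log2 fold change of the members was -0.14, against 0.01 for all genes tested. It was -0.50 within batch 1 and 0.26 within batch 2, and 0.27 without replicate 1 of Model. Within batch 1, 16 of 79 members were higher in MUS, and within batch 2, 68 of 79. Of all 9794 genes tested, 4801 were higher within batch 1 and 4964 within batch 2. The 2 batches thus went in opposite directions for the family as a whole. In both batches, 15 of 79 members were higher and 10 were lower, against 2945 higher and 2945 lower of all 9794 genes tested. All libraries of MUS were above all of Model for 9 members (11.4%, against 21.2% of all genes) and below for 8 (10.1%, against 21.0%).

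In MUS vs. Model the lowest log2 fold changes belonged to Rps14 (-2.25), Rps19 (-1.71), Rpl18 (-1.26), Rps2 (-1.11) and Rps16 (-1.07), 4 of them proteins of the small subunit. Rps14, which sits on the platform of the small subunit, had 212 and 279 FPKM in Control (245 ± 47.1, SD, n = 2), 552 and 246 in Model (399 ± 217, SD, n = 2) and 55.1 and 107 in MUS (81.0 ± 36.7, SD, n = 2). Both MUS libraries were below the other 4. Against Model the SE was 0.51, the unadjusted p from limma 0.0031 and the adjusted p 0.350, with -3.30 in batch 1 and -1.19 in batch 2. Against Control the log2 fold change of Rps14 was -1.65 (adjusted p = 0.0553), and without replicate 1 of Model its value against Model was -1.67 (adjusted p = 0.911).

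Rps19, which is needed to mature the small subunit and is the gene most often mutated in Diamond-Blackfan anemia, had 32.3 and 54.6 FPKM in Control, then 86.4 and 41.6 in Model and 13.7 and 22.6 in MUS. Rpl18, of the large subunit, had 39.0 and 33.0 FPKM in Control, against 57.9 and 30.01 in Model and 14.1 and 20.1 in MUS. Both genes had their 2 lowest values in MUS, as had Rps2 (126 and 157 FPKM in Control, with 222 and 136 in Model, 66.6 and 95.5 in MUS) and Rps16 (175 and 184 FPKM, 358 and 162, and 97.3 and 135). In all, 8 members had both MUS libraries below the other 4 (10.1% of members, against 12.6% of all genes), the other 3 being Rpl12, Rpl14 and Rpl28. The adjusted p of the 4 genes in MUS vs. Model was 0.400 for Rps19, 0.463 for Rpl18, 0.481 for Rps2 and 0.586 for Rps16. Within batch 2 alone their differences were -0.85, -0.55, -0.50 and -0.27, and within batch 1 they were -2.57, -1.97, -1.72 and -1.87.

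At the top of the same comparison, the 5 members were Rpl7a (2.88), Rpl38 (1.36), Rpl11 (0.86), Rpl36a (0.81) and Rpl23 (0.79), all of the large subunit. For Rpl7a the value was 2.84 in batch 1 and 2.93 in batch 2, with an SE of 0.37, an unadjusted p from limma of 0.000111 and an adjusted p of 0.139. The adjusted p lay between 0.0606 and 1.0 in the refits of this value, 0.0606 being that with the batch as a block. Rpl38 moved in batch 2 only (2.60, against 0.13 in batch 1), where replicate 2 of Model had 13.9 FPKM. Rpl11 had 32.8 and 18.6 FPKM in Control, then 47.2 and 24.7 in Model and 68.5 and 57.9 in MUS, so that both MUS libraries were above the other 4 (adjusted p = 0.648 against Model). Rpl23 had 54.4 and 34.1 FPKM in Control, against 64.2 and 37.9 in Model and 99.5 and 74.3 in MUS, and Rpl36a had 13.4 and 2.48, 10.1 and 7.02, and 15.9 and 15.3. In all, 6 members, Rpl6 and Rpl35a among them, had both MUS libraries above the other 4 (7.59% of members, against 12.6% of all genes). In both directions the share of members was below that of all genes.

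**Figure D3:**
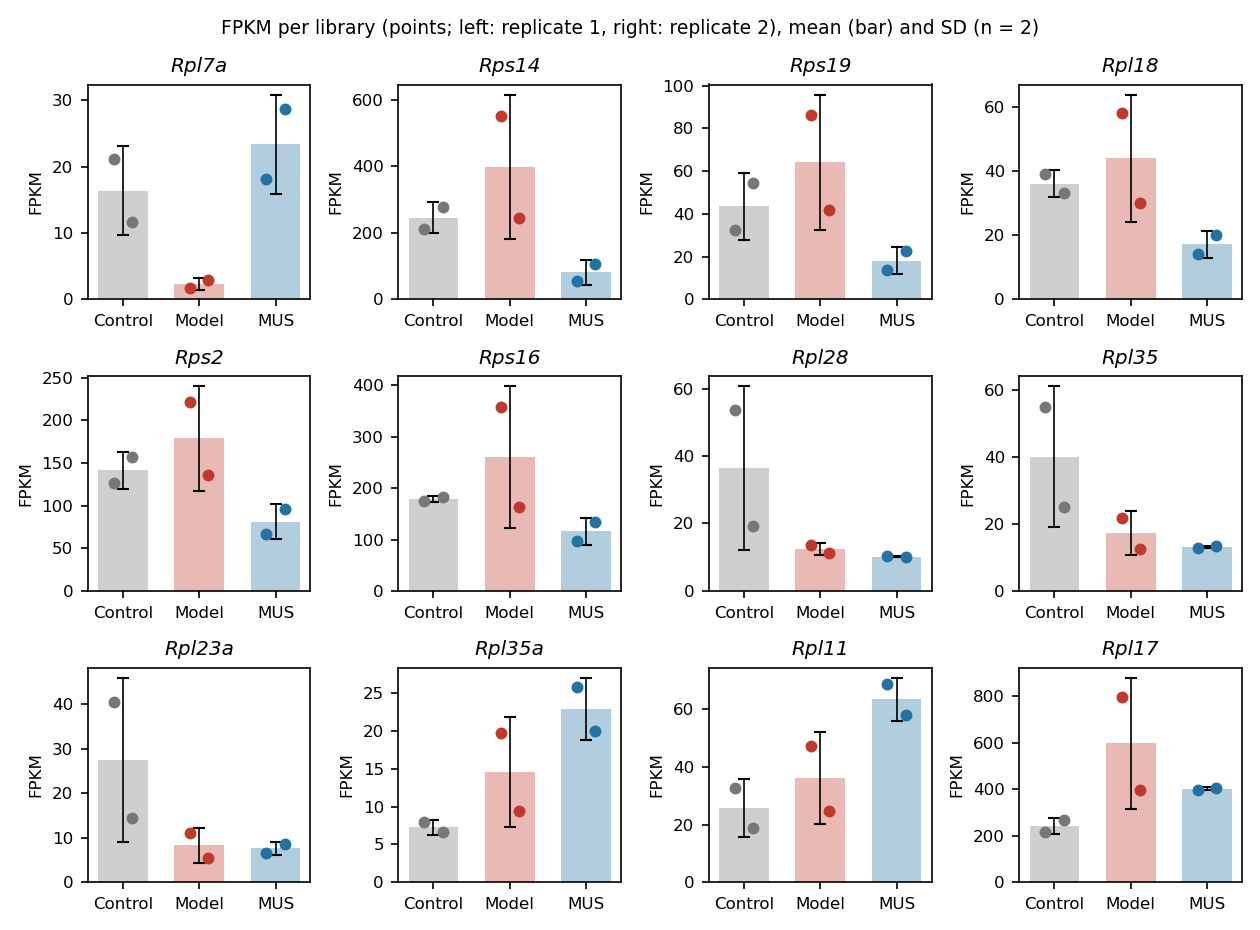
FPKM of 12 ribosomal protein genes in each library (points, replicate 1 left and replicate 2 right), with the group mean (bars from 0) and the SD of 2 libraries (error bars). Rpl7a was low in both Model libraries (1.67 and 2.90 FPKM), Rps14, Rps19, Rpl18, Rps2 and Rps16 were lowest in the MUS libraries, and Rpl28, Rpl35 and Rpl23a were highest in Control with replicate 1 far above replicate 2.

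**Figure D4:**
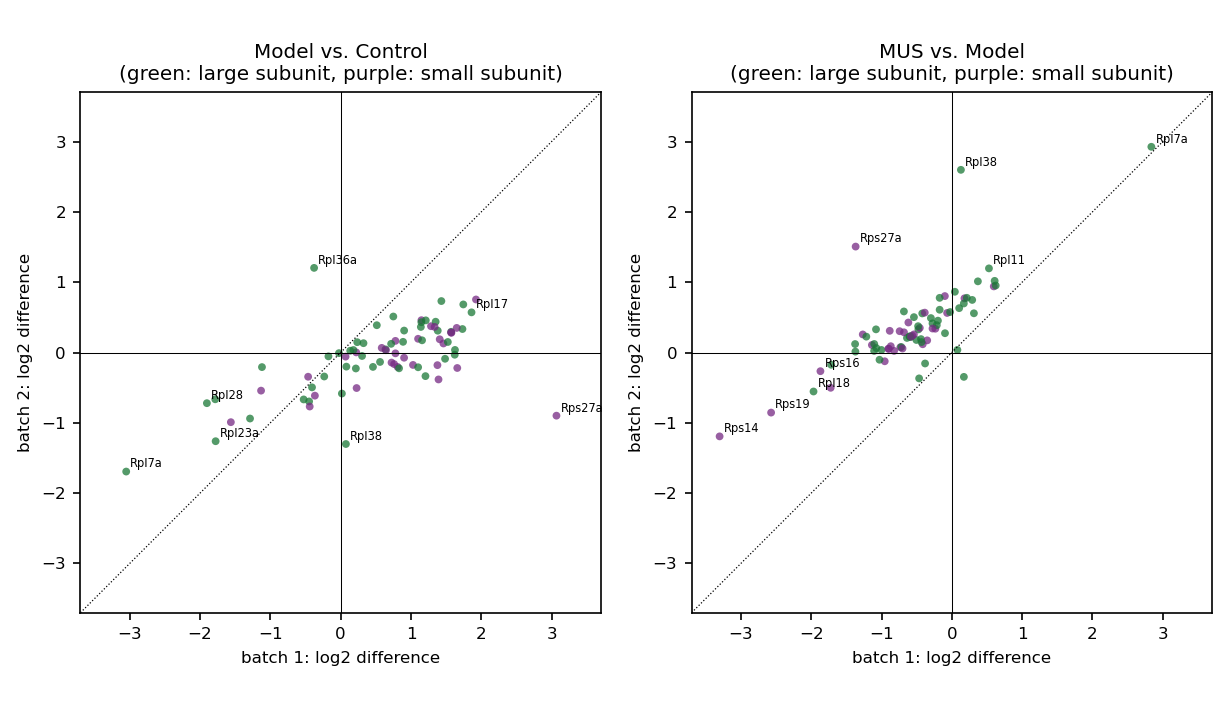
Log2 difference of log2(FPKM + 1) in batch 2 against that in batch 1 for the 79 tested members, Model vs. Control on the left and MUS vs. Model on the right, with a dotted line of equal differences. In MUS vs. Model Rpl7a lies near the line (2.84 and 2.93), whereas most other points sit to the left of it, and in Model vs. Control Rpl7a (-3.05 and -1.69) is below 0 in both batches while most other points sit to the right of the line.

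MUS vs. Control, which shares its Control libraries with the first comparison and its MUS libraries with the second, sets cells with LPS, ATP and muscone against untreated cells. Here 3 members were called, Rpl35a higher and Rpl28 and Rpl35 lower, which is 3.8% of members against 20.2% of all genes tested (11.3% higher and 8.91% lower). By adjusted p alone it was also 3, against 24.4% of all genes, and at an unadjusted p under 0.05, 5 members were higher and 8 lower (16.5% of members, against 39.7% of all genes). The median log2 fold change of the members was 0.36, against 0.04 for all genes tested, with 0.21 in batch 1 and 0.37 in batch 2. On the fragment scale it was -0.18, with all genes at -0.39, and after quantile normalization it was -0.36, with all genes at -0.06, so that the sign relative to all genes changed only under quantile normalization (0.32 on the FPKM scale, 0.21 and -0.30). With genes under a mean FPKM of 5 left out the difference from all genes was 0.11. The libraries did not overlap for 45 members that were higher (57.0%, against 39.6% of all genes) and 22 that were lower (27.8%, against 33.8%).

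Rpl35a (chr16:33056453-33060189, + strand), of the large subunit and also a Diamond-Blackfan anemia gene, rose in MUS. It had 7.95 and 6.58 FPKM in Control (7.27 ± 0.968, SD, n = 2), 19.7 and 9.41 in Model (14.6 ± 7.29, SD, n = 2) and 25.8 and 19.99 in MUS (22.9 ± 4.09, SD, n = 2). The 3 groups did not overlap. The log2 fold change in MUS vs. Control was 1.53 (SE 0.36, adjusted p = 0.0247), with 1.58 in batch 1 and 1.47 in batch 2, and it was 0.83 in Model vs. Control (adjusted p = 0.156). The call was lost without any one of the Control or MUS libraries, with an adjusted p of 0.0706 and 0.0665 without replicate 1 and 2 of Control and 0.184 and 0.0876 without replicate 1 and 2 of MUS. Without either MUS library, fewer genes of any kind were called as well. On the fragment scale the log2 fold change of Rpl35a was 1.03 (adjusted p = 0.0517). Of its 50-base stretches 6.4% occur in other genes, the least of the 4 members called.

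Rpl28 (chr7:4792874-4795066, + strand), of the large subunit, fell in MUS vs. Control. It had 53.6 and 19.1 FPKM in Control (36.4 ± 24.3, SD, n = 2), 13.6 and 11.2 in Model (12.4 ± 1.68, SD, n = 2) and 10.2 and 9.97 in MUS (10.1 ± 0.171, SD, n = 2). The groups did not overlap, and the spread lay in Control. Its log2 fold change was -1.58 (SE 0.45, adjusted p = 0.0431), with -2.28 in batch 1 and -0.88 in batch 2. Without replicate 1 of Control it was -0.86 (adjusted p = 0.102), without replicate 1 or 2 of MUS the adjusted p was 0.212 and 0.171, and without replicate 1 or 2 of Model it was 0.0656 and 0.0654. Rpl35 (chr2:39001580-39005624, - strand), which sits next to Rpl23a at the tunnel exit, also fell, from 54.9 and 25.1 FPKM in Control (40.0 ± 21.02, SD, n = 2) to 12.9 and 13.4 in MUS (13.1 ± 0.348, SD, n = 2), with 21.9 and 12.6 in Model. All Control libraries were above all others. The log2 fold change was -1.43 (SE 0.42, adjusted p = 0.0477), and -0.89 without replicate 1 of Control (adjusted p = 0.182). Without replicate 1 or 2 of MUS the adjusted p of Rpl35 was 0.241 and 0.178, and without replicate 1 or 2 of Model 0.0509 and 0.0514. As for Rpl35a, the refits without a MUS library had fewer called genes of any kind. With a GC correction and the batch as a block, the log2 fold change of Rpl28 was -1.24 (adjusted p = 0.0557). That of Rpl35 was -0.78 (adjusted p = 0.0881), and neither was a call. As 84.0% of the 50-base stretches of Rpl35 and 27.4% of those of Rpl28 occur in other genes, their values may include fragments of copies.

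With the batch as a block, 6 members were called in MUS vs. Control (21.7% of all genes), the 3 above together with Rpl11 (1.31, adjusted p = 0.0264), Rpl23a (-1.57, adjusted p = 0.0319) and Rps28 (-1.45, adjusted p = 0.0217). The remaining members among the 5 highest and 5 lowest included Rpl36a (1.23, adjusted p = 0.171), Rps27a (1.15, adjusted p = 0.336) and Rps14. The split of calls depended on the scale, with 1 higher and 2 lower on the FPKM scale, 0 higher and 13 lower on the fragment scale (27.1% of all genes), 1 and 15 after quantile normalization (20.3%) and 1 and 15 with voom (32.4%).

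By subunit, the median log2 difference between Model and Control was 0.32 over 48 large subunit genes and 0.43 over 31 small subunit genes, and in MUS vs. Model -0.05 and -0.20. Within batch 1 the MUS vs. Model medians were -0.43 and -0.70, and within batch 2 0.33 and 0.24. The difference between subunits was not tested. GC content moved with the contrasts over all genes, with a slope of -0.61 in log2 fold change per 10 percentage points of GC in MUS vs. Control and -0.33 in Model vs. Control. Members had a median GC content of 51.8%, against 49.3% for all genes tested, and a median length of 1770 bases, against 3910. Members with a GC content over 50% had a median of 0.23 in MUS vs. Control (50 genes), and those at or under 50% had a median of 0.44 (29 genes). The part of GC content in these medians was not tested beyond the corrected refits, in which the median of all 79 members was 0.34.

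Members with a close copy in the genome were compared as pairs within each library, since both genes are then read at the same depth. Rpl22 and its copy Rpl22l1, of which either can occupy the same place in the ribosome, had an FPKM ratio of 6.18 and 4.97 in Control, then 2.91 and 2.97 in Model and 5.19 and 5.98 in MUS. Both Model libraries were below the other 4, and Control and MUS overlapped. Rpl22l1 itself had 4.60 and 4.97 FPKM in Control, against 11.4 and 7.04 in Model and 7.98 and 5.23 in MUS (log2 fold change 0.79 in Model vs. Control, SE 0.29, adjusted p = 0.111), and Rpl22 had 28.4 and 24.7, 33.1 and 20.9, and 41.4 and 31.3 FPKM. The ratio of Rpl7 to Rpl7l1 was 7.57 and 6.96 in Control, with 8.80 and 8.02 in Model and 10.4 and 9.44 in MUS, without overlap between groups. The ratio of Rps27 to Rps27l, whose product is induced by p53, was 2.85 and 2.65, 2.94 and 2.54, and 1.67 and 2.38 in the same order, lowest in the 2 MUS libraries. These ratios were chosen by pair and not by value, and with 2 libraries a group no exact permutation test of them can go below p = 0.33. The copy Rps4l of Rps4x is annotated as a pseudogene in the table and was therefore no member.

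The other genes of the translation machinery were counted from lists. Of 5 ribosomal proteins that the rule leaves out, 4 were tested and 0 were called in any comparison by limma, with 1 at an unadjusted p under 0.05 (Model vs. Control) and 0 called with voom. The highest of them, Fau, whose product is a ubiquitin-like protein fused to a small subunit protein, had 273 and 337 FPKM in Control, then 782 and 377 in Model and 344 and 433 in MUS, again with its peak in replicate 1 of Model. Of 41 translation factors tested, 0 were called in Model vs. Control by limma (against 15.1% of all genes). At an unadjusted p under 0.05, 5 were higher and 1 lower, against 18.7% and 14.9% of all genes. With voom 0 were higher and 2 lower (4.88%, against 28.5% of all genes). In MUS vs. Control 3 factors rose (7.32%, against 11.3% of all genes) and 1 fell (2.44%, against 8.91%). By voom 0 rose and 1 fell (2.44% together, against 32.4%). Eif2s1, the regulated subunit of initiation factor 2, had a log2 fold change of 1.14 (adjusted p = 0.0254), Eif1a, which helps to select the start codon, of 1.12 (0.0472), and Etf1, the release factor, of 1.11 (0.0497). With the batch as a block 1 of these 3, Eif2s1, was still called (adjusted p = 0.0336), and Eif1a (0.0672) and Etf1 (0.0708) were not. Eif3k, of initiation factor 3, fell from 35.6 and 26.4 FPKM in Control to 6.60 and 9.15 in MUS (-1.85, adjusted p = 0.0071), with 19.2 and 14.2 in Model.

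Of 103 ribosome biogenesis genes tested, 4 were higher (3.88%, against 9.5% of all genes) and 0 lower (against 5.56%) in Model vs. Control by limma. At an unadjusted p under 0.05, 6 were higher and 6 lower, against 18.7% and 14.9% of all genes. Rcl1, which acts in processing of the small subunit RNA, went from 5.58 and 7.66 FPKM in Control to 62.4 and 45.6 in Model and was at 42.5 and 38.0 in MUS (2.85, adjusted p = 0.0023). Eif6, which keeps the subunits apart until the large one is mature, had a log2 fold change of 1.75 (adjusted p = 0.0306), and Sbds, which helps to release it, of 1.49 (0.0141), while Wdr43 (1.32, adjusted p = 0.0229) was the fourth. In MUS vs. Control Rcl1, Sbds and Wdr43 rose (2.91% of the list, against 11.3% of all genes). Imp3 fell (-1.14, adjusted p = 0.0397 by limma), which is 0.971% of the list, against 8.91% of all genes. With the batch as a block 3 rose and 2 fell (4.85% together, against 21.7% of all genes). With voom the counts were 2 higher and 16 lower in Model vs. Control (17.5% of the list, against 28.5% of all genes). In MUS vs. Control they were 2 and 17 (18.4%, against 32.4%). The list median in Model vs. Control on the FPKM scale was 0.04, the same as that of all genes.

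Among 25 regulators of the mTOR, LARP1 and MYC systems tested, 4 were higher (16.0%, against 9.5% of all genes) and 4 lower (16.0%, against 5.56%) in Model vs. Control. With voom 1 was higher and 12 were lower, together 52.0% against 28.5% of all genes. Larp1, which binds TOP mRNAs, had 14.9 and 32.8 FPKM in Control, against 62.7 and 78.6 in Model and 59.4 and 66.1 in MUS (1.62, adjusted p = 0.0344). The others that rose most were Mxd1, an antagonist of MYC (2.13, adjusted p = 0.0023), and Mdm2 (1.48, adjusted p = 0.0187). Those that fell most were Sesn1, a sestrin, a group of proteins that restrain mTOR (-2.78, adjusted p = 0.0022), Mnt, another MYC antagonist (-2.36, adjusted p = 0.0047), and Rragd, a GTPase that recruits mTOR to lysosomes (-1.66, adjusted p = 0.0111). In MUS vs. Control 3 regulators rose and 6 fell, and in MUS vs. Model 0 genes of any of these lists were called by limma or voom. At an unadjusted p under 0.05 in MUS vs. Model there were 1 factor, 3 biogenesis genes and 0 regulators that were higher and 2, 2 and 1 that were lower.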

How the data were processed

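Poly-A RNA of cultured peritoneal macrophages from mice was sequenced in 6 libraries. The authors deposited 1 table of FPKM with 1 column per library, quantified with RSEM according to the methods. The submitters' processing notes also name HISAT2, featureCounts 1.5.0-p3 and the genome build GRCm39, whereas 98.3% of gene positions in the table, and 81 of 83 members, equal those of GENCODE M21 on GRCm38. Coordinates are therefore given on GRCm38. How reads that fit several places were counted is not given in the sources used here. All 6 columns were used (0 columns without a sample). Groups, replicates and batch come from the sample labels. No source says that the 2 libraries of a group came from separate animals, so p-values measure only the spread between these samples.

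The package limma 3.58.1 (lmFit, contrasts.fit, eBayes with trend) in R 4.3.3 was applied to log2(FPKM + 1) of the 9794 genes whose mean FPKM reached 1. All 6 libraries were in one model of 3 groups, with 3 residual and 4.04 prior degrees of freedom. Tests were two-sided. A fold change on this scale understates that of genes near the pseudocount of 1. Whole fragments per gene were recovered from FPKM and gene length (tolerance 0.1 of a step) and used with voom in an alternative, because DESeq2, which the authors used, was not run. Intervals and floors from fragments cover counting error only. The fit was tested on simulated data. Python 3.11.15 with pandas 2.3.3, NumPy 2.4.6 and Matplotlib 3.10.9 served for tables and figures.

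The labels give the replicate number as batch, which pairs libraries across groups. Deviations of same-numbered libraries correlated across genes at 0.12 (Control and Model), 0.14 (Model and MUS) and -0.09 (Control and MUS), and a fit with the batch as a block was run as an alternative. Alternatives also changed the pseudocount (0.1 and 5), the filter, the scaling, the correction for length and GC content, the libraries and the members by shared sequence.

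Named are every member called, the 5 largest and 5 smallest log2 fold changes of each comparison, the 10 highest members, the stalk genes, the pairs with a close copy, members that failed the filter and, from the other lists, called genes up to 3 in each direction. Rpl12, Rpl14, Rpl6, Rps15, Rpl13a, Rpl21, Rpl36, Rpl19 and Fau were chosen after their values were seen. Some members under these rules are not reported here. The members and the gene lists were chosen with earlier results of these data known.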

Additional observations from a re-analysis of the deposited data

How the results depend on the processing

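In Model vs. Control 1 member and 1475 of all genes tested were called. With no filter on low values the counts were 0 members and 260 genes. They were 6 and 2171 when scaled to fragments on genes, 4 and 1422 after quantile normalization and 10 and 2791 with voom. With the replicate block they were 3 and 1582, with a length correction 3 and 1543, and with both 4 and 1503. Without a mean-variance trend they were 2 and 1490. The count was 0 among the 43 members with at most 25% shared stretches, a limit chosen after seeing the data. Leaving out 1 library gave counts from 0 (without replicate 1 of Model) to 9 (without replicate 2 of Control or of Model). The median log2 fold change of 0.41 became -0.13 when scaled to fragments on genes, -0.40 after quantile normalization and -0.14 with voom, and ranged from -0.10 to 0.86 when 1 library was left out, the ends being without replicate 1 and without replicate 2 of Model. For Rps27a that range was -0.018 to 2.19.

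In MUS vs. Control, where 3 members were called, the count was 0 with no filter, 6 at a mean FPKM of at least 5, 13 when scaled to fragments, 16 after quantile normalization, 6 with the replicate block, 6 with a length correction, 8 with length correction and block, 6 with GC correction and block, 16 with voom, 1 with at most 25% shared stretches, and 0 (without either MUS library) to 7 (without replicate 2 of Control). Calls among all genes tested went from 1980 to 456 with no filter, and they also fell without either MUS library. The drops to 0 members there were thus part of a general loss of calls. Among all genes the calls were 1347 at a mean FPKM of at least 5, 2658 when scaled to fragments, 1987 after quantile normalization and 3169 with voom. With the replicate block they were 2125, with a length correction 2023, with both 2047, and with GC correction and block 1623. The median of the members, 0.36, became -0.18, -0.36 and -0.19 with fragment scaling, quantile normalization and voom, and 0.24 to 0.36 without 1 library. In MUS vs. Model 0 members were called under every alternative run, where few genes of any kind were called, and the median of -0.14 ranged from -0.52 to 0.27 without 1 library, being above 0 without replicate 1 of Model. It was -0.018 with a length correction (all genes -0.0035) and -0.05 after quantile normalization. Scaling by median ratios, the pseudocounts and the fit of only the 2 groups compared kept all counts of members called within 1.5 times. Calls among all genes moved further, with 824 in Model vs. Control and 1025 in MUS vs. Control at the pseudocount of 5. With only the 2 groups compared they were 797 in Model vs. Control.

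The replicate block moved counts of calls by over 1.5 times as given in the report, and in MUS vs. Model the members higher at an unadjusted p under 0.05 went from 1 to 4. Of 587 refits of the 28 named values, 508 kept their direction and side of the threshold. The call was gained in 53 and lost in 25, and 1 changed direction (Rps27a, above). The causes of these changes were not tested. Part of the 508 was fixed in advance, since few genes of any kind were called in MUS vs. Model under any refit. Refits without a library outside the 2 groups compared also leave the log2 fold change as it was. The planned restriction to members without any shared stretches is not given, as it left too few members for a median. Depth was 15526321 fragments or more a library, and its part in the values of low members was not tested. The number of 2 libraries a group limits all tests.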
